A study of Homo sapiens with 12 samples.

Results

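Described here are 10 regulators of the step from G1 into S phase, picked by gene symbol from a table of 36601 genes. They are the D-type cyclins CCND1, CCND2 and CCND3, the E-type cyclins CCNE1 and CCNE2, the inhibitors of cyclin-dependent kinases (CDKs) CDKN1B, CDKN1C and CDKN2B, and the transcription factors E2F1 and E2F2. Of the 10 genes, 8 were among the 15376 genes that passed a filter on low values, CDKN1C fell below it, and CDKN2B had no reads. All were measured by RNA-seq in KP4, an established human pancreatic ductal carcinoma line labelled WT, so every value comes from a single line. Cells were treated for 24 h with the vehicle DMSO, with 10 mM metformin (Met), an inhibitor of mitochondrial complex I, with 5 nM FK866 (FK), an inhibitor of the NAD salvage enzyme NAMPT, or with both drugs at the same doses (Met+FK). Each treatment had 3 libraries, 12 in all. The labels do not say whether these came from separate cultures, so the p-values measure the spread between these libraries, which may be technical.

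D-type cyclins pair with CDK4 or CDK6 and start the phosphorylation of the retinoblastoma protein family in G1. This frees activator E2F factors such as E2F1 and E2F2, which drive genes of DNA synthesis and of the E-type cyclins, the partners of CDK2. The CDKN1 inhibitors bind cyclin-CDK complexes, and the CDKN2 inhibitors bind CDK4 and CDK6 themselves.

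Libraries held between 30667735 and 41052203 read pairs in genes. Values are normalized counts, that is, read pairs divided by a size factor for each library, and a gene was called changed at a limma-trend adjusted p under 0.05. The keratin genes KRT8 and KRT18 and the ductal factor SOX9 were well expressed, while EPCAM stayed between 3.78 and 12.5 and KRT19 between 14.6 and 75.0 normalized counts. The summed level of the 7 ductal markers was 25301 to 26242 in DMSO, 16465 to 19625 in Met, 19349 to 22853 in FK and 16172 to 19611 in Met+FK. The fibroblast gene DCN was at 0 in every library, and the leukocyte gene CD3E did not exceed 1.01. PTPRC, another leukocyte gene, held 101 to 304. The leukocyte list as a whole, with 4 genes, summed to 1101 to 1243 in DMSO and to between 915 and 1034 elsewhere, most of it CD68. The fibroblast list of 5 genes summed to 140 to 203 in DMSO, 80.3 to 112 in Met, 240 to 316 in FK and 90.9 to 115 in Met+FK, and the endothelial list of 3 genes did not exceed 56.3. The part of these levels in the results was not tested.

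Metformin lowered 5 of the 8 tested genes and raised 1. CCND1, CCND3, CCNE1, E2F1 and E2F2 were lower and CCND2 was higher in Met than in DMSO, each also past a fold of 1.5. Over all genes tested, 25.9% were lower and 24.9% higher in this comparison, or 10.2% and 12.8% with the fold added. With FK866 alone 2 of the 8 were called, CDKN1B higher and CCND3 lower. These numbers were near the shares of all genes tested, 11.3% higher and 9.84% lower. Neither member passed a fold of 1.5, which 2.73% of all genes did upwards and 0.754% downwards. Both calls were lost in a fit of only the FK and DMSO libraries and without DMSO library 1. Those settings called 152 and 133 of all genes. With both drugs all 8 genes changed, 2 higher and 6 lower, against a background of 26.1% in each direction. CDKN1B did not reach a fold of 1.5, and the other 7 genes did, 1 upwards and 6 downwards (13.7% and 11.3% of all genes). These 3 comparisons share the DMSO libraries, and the members were chosen with earlier results of these data known.

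**Figure D1:**
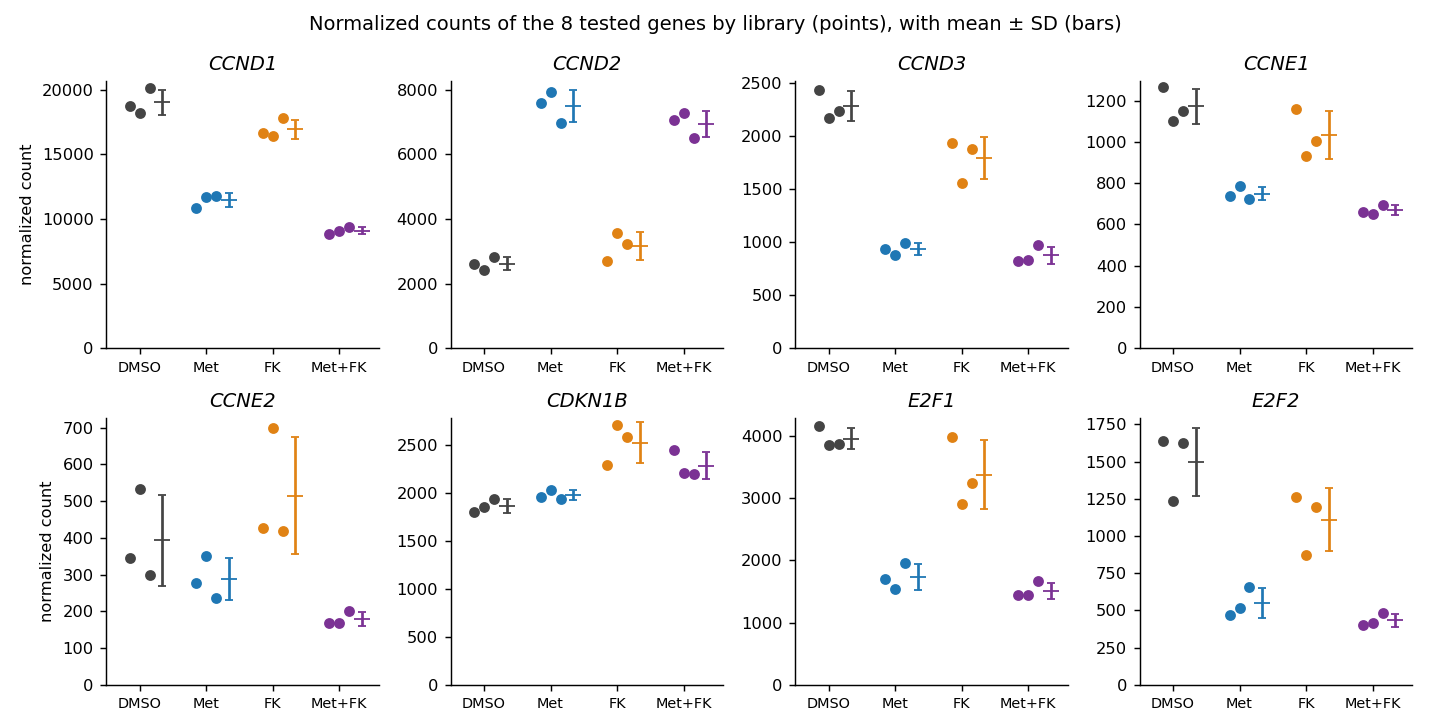
Normalized counts (vertical axis, from 0) of the 8 tested genes in each library (points) of the 4 treatments (horizontal axis), with the mean ± SD of the 3 libraries beside them. CCND2 is high in Met and Met+FK, CCND1, CCND3, CCNE1, E2F1 and E2F2 are low there, and CDKN1B lies above DMSO in FK and Met+FK.

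The D-type cyclins moved in different directions. CCND1, cyclin D1 (chr11:69641087-69654474, plus strand, hg38), held 18730.2, 18226 and 20105 normalized counts in the 3 DMSO libraries and 10849, 11733 and 11798 in Met. FK libraries held 16666, 16388 and 17781, and Met+FK libraries held 8850.5, 9054 and 9385. Every treated library lay below every DMSO library, and the 4 treatments did not overlap. Metformin lowered CCND1 by 39.7% (log2 fold change -0.73, SE 0.065, limma-trend adjusted p = 5.95e-07). In bulk RNA, fewer cells expressing a gene and less RNA of it per cell cannot be told apart. FK866 alone gave a log2 fold change of -0.17 (95% interval -0.31 to -0.028), which missed the threshold at an adjusted p of 0.0723 by limma-trend. With both drugs the log2 fold change was -1.06 (SE 0.065, limma-trend adjusted p = 1.18e-08). LTO1 overlaps CCND1 on the other strand by 1399 bases and held 610 to 939 normalized counts, well under CCND1, and reads of the overlap cannot be told apart without strand.

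CCND2, cyclin D2 (chr12:4273762-4305353, plus strand), was the only member that metformin raised. Its DMSO libraries held 2617, 2429.7 and 2809 normalized counts and its Met libraries 7598, 7942 and 6974. FK gave 2713, 3560.0 and 3222, and Met+FK gave 7059.9, 7285 and 6504. The Met and Met+FK libraries overlapped each other and were far above all DMSO and FK libraries, while FK overlapped DMSO. The rise was 2.87-fold in Met (log2 fold change 1.52, SE 0.096, limma-trend adjusted p = 2.68e-08) and 2.65-fold in Met+FK (log2 fold change 1.41, SE 0.096, limma-trend adjusted p = 3.39e-08). FK866 alone gave 0.27 on the log2 scale (limma-trend adjusted p = 0.0576). The antisense gene CCND2-AS1, which overlaps it by 2491 bases, held no more than 63.8.

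CCND3, cyclin D3 (chr6:41934933-42050357, minus strand), fell most of the D cyclins. It held 2435, 2168 and 2238 in DMSO and 934, 881 and 993 in Met. In FK the values were 1930.2, 1561 and 1878, and in Met+FK they were 818, 831 and 969.8. Met and Met+FK overlapped, FK lay between them and DMSO, and no treated library reached the DMSO range. The log2 fold change was -1.28 in Met (SE 0.099, limma-trend adjusted p = 1.55e-07) and -1.39 in Met+FK (SE 0.099, limma-trend adjusted p = 5.05e-08). FK866 alone lowered it by 21.8% (log2 fold change -0.35, SE 0.099, limma-trend adjusted p = 0.0297). That last call was lost when the trend of each library on GC content and length was removed (-0.16, limma-trend adjusted p = 0.0817), in a fit of only the FK and DMSO libraries (adjusted p = 0.0711), and without DMSO library 1 (0.129), DMSO library 3 (0.0735) or FK library 2 (0.138). CCND3 has a GC content of 60.0% against a median of 48.5% over all genes tested, and every FK library had a lower slope of expression on GC content than every DMSO library.

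Per kilobase of transcript, CCND1 was the most abundant D-type cyclin in each treatment. Its level per kb was 4488 in DMSO, where CCND3 had 1126 and CCND2 403. CCND1 thus made up 74.6% ± 1.11 (SD, n = 3) of D-cyclin transcript in DMSO, 74.5% ± 0.273 in FK, 62.5% ± 1.47 in Met and 58.8% ± 0.952 in Met+FK. The share of CCND2 went from 6.70% ± 0.187 in DMSO to 26.8% ± 1.78 in Met and 29.4% ± 1.95 in Met+FK, and was 9.09% ± 1.37 in FK. CCND2 and CCND3 so changed places, CCND3 being at 18.7% in DMSO and 10.7% in Met. With the length of all annotated exons in place of one transcript, CCND3 had 8.40% in DMSO, still above the 6.94% of CCND2, while in FK it lay below CCND2, at 311 against 396 per kb. The sum of all 3 fell from 6017 ± 268 per kb in DMSO to 4322 ± 119.6 in Met and 3648 ± 60.4 in Met+FK, with 5369 ± 224 in FK. These shares and sums were not tested.

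**Figure D2:**
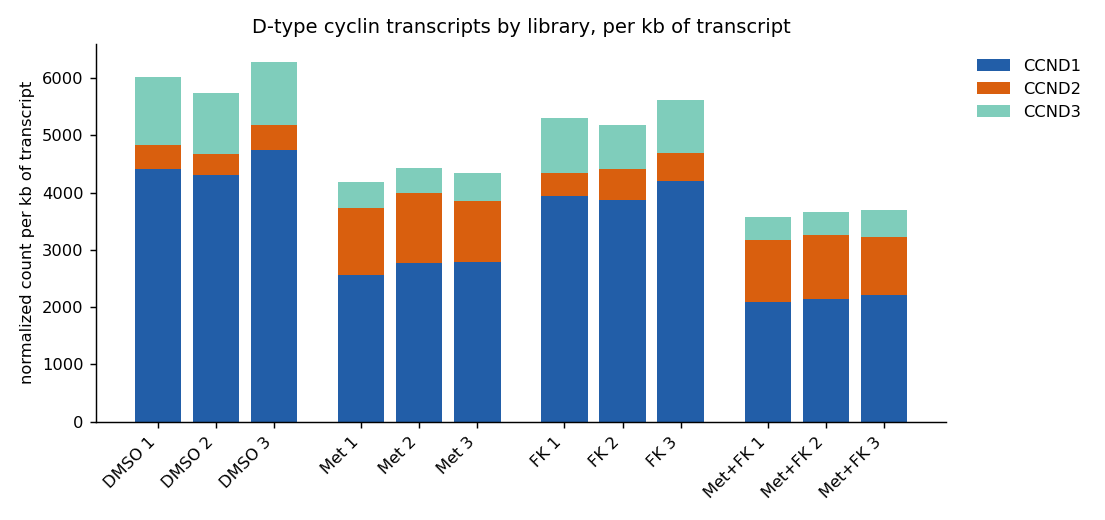
Normalized count per kb of transcript (vertical axis, from 0) of CCND1, CCND2 and CCND3, stacked for each of the 12 libraries (horizontal axis). The CCND2 segment widens in the Met and Met+FK libraries while the whole column shortens, from a mean of 6017 in DMSO to 3648 in Met+FK.

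Both E-type cyclins were lower in Met+FK than in DMSO. CCNE1, cyclin E1 (chr19:29811991-29824312, plus strand), held 1264, 1102 and 1149 normalized counts in DMSO and 739, 784 and 724 in Met. FK libraries had 1159, 932 and 1003, and Met+FK libraries had 659, 652 and 696. FK overlapped DMSO, and every library that received metformin lay below both. Metformin lowered CCNE1 by 35.9% (log2 fold change -0.64, SE 0.093, limma-trend adjusted p = 5.42e-05), and both drugs lowered it by 42.8% (log2 fold change -0.81, SE 0.093, limma-trend adjusted p = 5.4e-06). With FK866 alone the 95% interval of the log2 fold change ran from -0.38 to 0.011 (limma-trend adjusted p = 0.137).

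CCNE2, cyclin E2 (chr8:94879770-94896678, minus strand), varied more between replicates than the other tested members. DMSO libraries held 345, 534 and 299.7 normalized counts, and Met libraries held 276, 349.6 and 237. FK gave 427, 699.8 and 419 and Met+FK gave 167, 167 and 201. The Met+FK libraries were tightly grouped below all others, while DMSO, Met and FK each had their highest value in library 2, and DMSO overlapped both Met and FK. Met+FK lay below DMSO (log2 fold change -1.09, SE 0.22, limma-trend adjusted p = 0.000779), a fall of 53.2%. The log2 fold change was -0.42 in Met (95% interval -0.89 to 0.048) and 0.39 in FK (-0.078 to 0.86), with limma-trend adjusted p of 0.123 and 0.185. Leaving out 1 library at a time, the Met value ran from -0.59 without DMSO library 3 to -0.18 without DMSO 2, and the FK value from 0.15 without FK 2 to 0.64 without DMSO 2, where it passed (limma-trend adjusted p = 0.0388). Once the GC and length trend was removed, the Met value was -0.68 and passed (limma-trend adjusted p = 7.74e-05), and the FK value was 0.025 (adjusted p = 0.917). CCNE2 has the lowest GC content of the 10 members, 34.6%. INTS8 and NDUFAF6 overlap it on the other strand and held 1259 to 2222 and 376 to 462 normalized counts, so part of the CCNE2 reads is uncertain.

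Of the CDK inhibitors among the members, only CDKN1B (p27), which binds cyclin E-CDK2, was expressed at a level that could be tested. CDKN1B (chr12:12715058-12722369, plus strand) held 1796, 1852 and 1939 in DMSO and 1959, 2028 and 1932 in Met. It held 2285, 2699 and 2575 in FK and 2442, 2205 and 2198 in Met+FK. The FK and Met+FK libraries overlapped each other and stood above all DMSO and Met libraries, which overlapped in turn. The rise was 35.0% with FK866 (log2 fold change 0.43, SE 0.079, limma-trend adjusted p = 0.00908) and 22.4% with both drugs (log2 fold change 0.29, SE 0.079, limma-trend adjusted p = 0.0063). Metformin alone gave 0.084 (95% interval -0.085 to 0.25, limma-trend adjusted p = 0.396). The FK866 call was lost without DMSO library 1 (limma-trend adjusted p = 0.0547) and in a fit of only the FK and DMSO libraries (0.0527). With every library scaled to the same total of read pairs, CDKN1B also passed in Met (0.21, limma-trend adjusted p = 0.0499), giving 2 members higher and 5 lower there. AC008115.3, on the same strand, shares 549 bases with it and held 76.9 to 129.7.

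Fewer CCND1 counts stood against each CDKN1B count in the treated cells. The ratio was 10.2 ± 0.325 (SD, n = 3) in DMSO, 6.76 ± 0.625 in FK, 5.81 ± 0.285 in Met and 4.0 ± 0.335 in Met+FK. For CCNE1 the ratio went from 0.630 ± 0.0636 in DMSO to 0.414 ± 0.0837 in FK, 0.380 ± 0.00624 in Met and 0.294 ± 0.0234 in Met+FK. In both ratios DMSO was above every other treatment and Met+FK below, and Met and FK overlapped for CCNE1 and, at the edge, for CCND1. The ratios were not tested.

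CDKN1C (p57, of the same inhibitor family as p27; chr11:2883213-2885773, minus strand) was near the limit of detection, with 71 read pairs in the 12 libraries together. It had 18 read pairs in DMSO, 11 in Met, 20 in FK and 22 in Met+FK. The exact Poisson 95% intervals of these counts, in CPM (read pairs for each 1000000), were 0.104 to 0.276, 0.0553 to 0.198, 0.113 to 0.284 and 0.127 to 0.306, and they cover counting error only. All 4 intervals overlapped, but overlap is no test of a difference, and no test is given for this gene. Whether the treatments differed cannot be said from these counts. CDKN2B (p15, an inhibitor of CDK4 and CDK6, chr9:22002903-22009305, minus strand) had 0 of 419514875 read pairs. The exact Poisson 95% interval of that count reached up to 0.00879 CPM.

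The genes next to CDKN2B were looked at after its values were seen. The neighbouring inhibitor gene CDKN2A and MTAP, an enzyme of methionine salvage, also had 0 read pairs in all 12 libraries, as did DMRTA1 on the other side. CDKN2B-AS1, an antisense gene that covers CDKN2B entirely, had 9 read pairs. Of the genes listed around CDKN2B, the nearest that was well expressed was KLHL9, 667 kb away, with 21789 read pairs, and beyond it lay FOCAD with 61534.

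**Figure D3:**
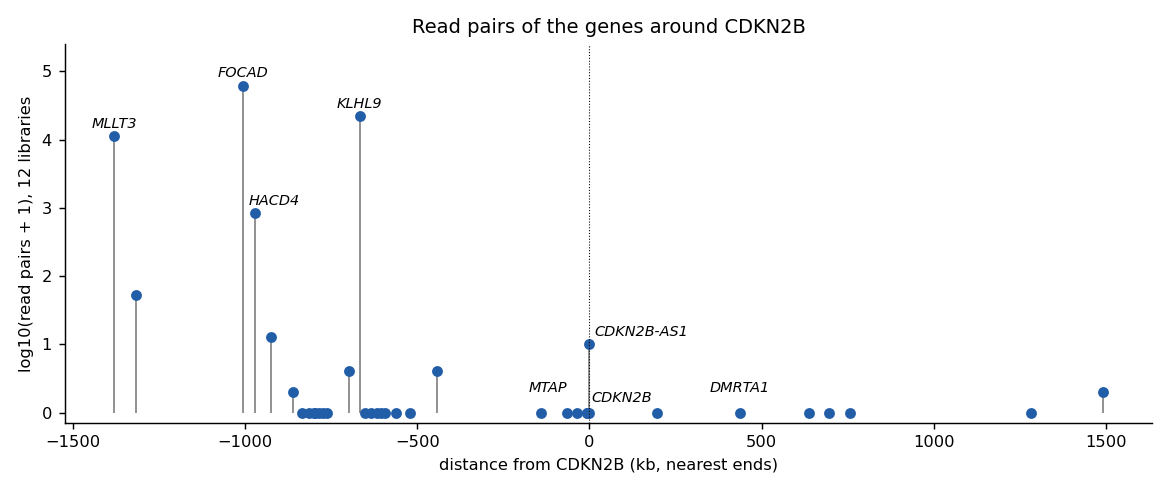
Read pairs summed over the 12 libraries, as log10(read pairs + 1) (vertical axis), for genes around CDKN2B by distance from it in kb (horizontal axis). CDKN2B, MTAP and DMRTA1 sit at 0, and KLHL9 and FOCAD on the left have 21789 and 61534 read pairs.

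E2F1 and E2F2, both activators of S phase genes, fell with metformin. RefSeq promoter sequence (GRCh38.p14) was at hand for E2F1, E2F2, CCND3, CCNE1, CDKN1B and CDKN2B, and was searched because E2F factors bind near the starts of their own genes. The 4 words TTTCGCGC, TTTGGCGC, TTTCCCGC and TTTGCCGC, forms of the E2F motif, were sought on both strands of the 250 bases before each start. E2F1 held 2 matches that did not overlap and E2F2 held 1, while the other 4 genes, CCND3 at 3 starts, held none. At least 1 match was found in 3.40% of the 27305 genes with a promoter sequence. A match is a description of the sequence and not a site known to be bound. The windows around the matches are shown with the matching letters in capitals, E2F1 from chr20:33686386-33686443 and E2F2 from chr1:23531243-23531300, both on the minus strand and read towards the start.
E2F1: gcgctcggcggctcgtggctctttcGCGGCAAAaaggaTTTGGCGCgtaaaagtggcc
E2F2: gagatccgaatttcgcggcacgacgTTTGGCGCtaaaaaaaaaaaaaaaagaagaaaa
In E2F1 the word TTTGGCGC lies 20 to 13 bases before the start, and TTTGCCGC, on the opposite strand, 33 to 26 bases before it. In E2F2 the word TTTGGCGC lies 42 to 35 bases before the start.

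E2F1 (chr20:33675477-33686385, minus strand) held 4152, 3845 and 3867 normalized counts in DMSO and 1698, 1545 and 1951 in Met. FK libraries held 3981, 2907 and 3241, and Met+FK libraries held 1440.4, 1437 and 1662. The libraries with metformin overlapped each other and lay below all those without it, and FK reached into the DMSO range through its library 1. Metformin lowered E2F1 by 56.4% (log2 fold change -1.20, SE 0.11, limma-trend adjusted p = 1.01e-06) and both drugs by 61.8% (log2 fold change -1.39, SE 0.11, limma-trend adjusted p = 1.66e-07). The log2 fold change with FK866 was -0.24 (limma-trend adjusted p = 0.119).

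E2F2 (chr1:23506438-23531233, minus strand) had the largest fall of the members in Met and in Met+FK. Its DMSO libraries held 1636, 1235 and 1626 and its Met libraries 472, 516 and 660.5. FK gave 1265, 869.6 and 1197, and Met+FK gave 399, 418 and 481. Again the libraries with metformin overlapped only each other, and FK overlapped DMSO. The log2 fold change was -1.45 in Met (SE 0.16, limma-trend adjusted p = 4.17e-06) and -1.78 in Met+FK (SE 0.16, limma-trend adjusted p = 4.04e-07), a fall of 70.9%. FK866 alone gave -0.44 (95% interval -0.77 to -0.10, limma-trend adjusted p = 0.0567). Per kb, E2F1 was the more abundant, with 1470.2 against 288 in DMSO and 563 against 83.3 in Met+FK.

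On a scale per kb of transcript, the order of levels among the members differed between treatments. In DMSO it ran from CCND1 (4488 per kb) through E2F1 (1470.2), CCND3 (1126), CDKN1B (772), CCNE1 (599), CCND2 (403), E2F2 (288) and CCNE2 (147) to CDKN1C (3.46), and no neighbours in that order overlapped. In Met, CCND1 (2704) was followed by CCND2 (1156), CDKN1B (818), E2F1 (644), CCND3 (462) and CCNE1 (383), with CCNE2 (108) and E2F2 (106) overlapping below them. In FK the order from CCND1 (3998) was E2F1 (1255), CDKN1B (1045), CCND3 (883), CCNE1 (528), CCND2 (487), E2F2 (214) and CCNE2 (193). There E2F1 overlapped CDKN1B, CDKN1B overlapped CCND3, CCNE1 overlapped CCND2, and E2F2 overlapped CCNE2. In Met+FK, CCND1 (2146) stood above CCND2 (1070.3) and CDKN1B (946), which overlapped, and these above E2F1 (563), CCND3 (431), CCNE1 (342), E2F2 (83.3) and CCNE2 (66.7). These orders hold for the length of 1 canonical transcript of each gene. With the length of all annotated exons CDKN1B had 201 per kb in DMSO, below CCNE1 (476), CCND3 (396), CCND2 (328) and E2F2 (274), and 213 in Met, below E2F1 (644) and CCNE1 (304). With either length CCND2 stood below E2F1 in DMSO and FK and above it in Met and Met+FK. CDKN1C did not exceed 5.19 per kb in any library.

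**Figure D4:**
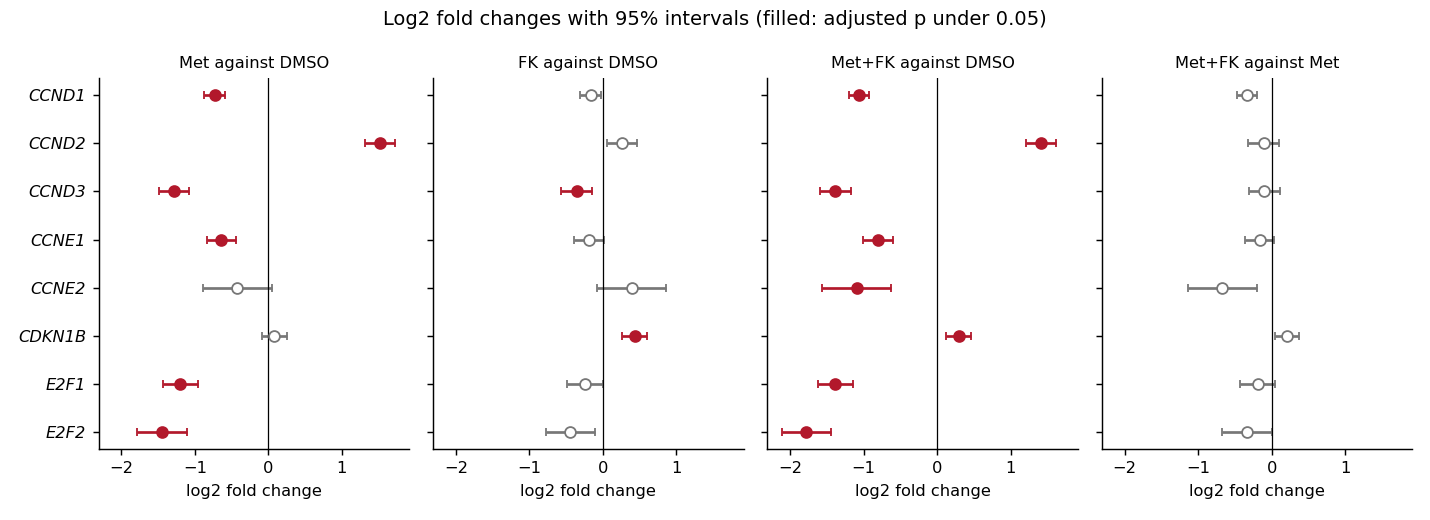
Log2 fold changes (horizontal axis) of the 8 tested genes (vertical axis) in 4 comparisons, with 95% intervals, filled where the limma-trend adjusted p was under 0.05. FK against DMSO has 2 filled points, Met+FK against DMSO has 8, and Met+FK against Met has 0.

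Deviations from the treatment means correlated between same-numbered libraries of DMSO and FK (0.219 to 0.420) and of Met and Met+FK (0.171 to 0.226). Single pairs of other combinations reached 0.403 (Met and FK) and 0.328 (DMSO and Met). Libraries with different numbers were not compared, so a pairing is not established. As an alternative, all 12 libraries were fitted again with a block for the replicate number. This single fit shared the block over all 4 treatments, including combinations whose numbers were not read as paired. With this replicate block, in FK against DMSO, 6 of the 8 members passed in place of 2, as did 44.6% of all genes tested in place of 21.1%. The added members were E2F2 (limma-trend adjusted p = 0.00626), CCND1 (0.0156), CCND2 (0.0206) and E2F1 (0.039). The ranges of FK and DMSO did not overlap for 1 member upwards, CDKN1B, and for 2 downwards, CCND1 and CCND3, where 17.2% and 21.6% of all genes tested showed this.

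Adding FK866 to metformin changed none of the 8 members by limma-trend at an adjusted p under 0.05. Of all genes tested, 0.0911% rose and 0.0065% fell between Met and Met+FK. At an unadjusted p under 0.05, 3 members passed (CCND1, CCNE2 and CDKN1B) among 1051 genes. edgeR called 0 members and DESeq2 called 1, CCND1, with 0.481% of all genes. Ranges did not overlap for CDKN1B upwards and for CCND1, CCNE1 and CCNE2 downwards, which holds for 7.88% and 5.56% of all genes tested. CCND1 had a log2 fold change of -0.33 (95% interval -0.47 to -0.19, limma-trend adjusted p = 0.0689), and with the replicate block, which called 0.78% of all genes, its adjusted p was 0.00462. CCNE2 had -0.67 (-1.14 to -0.20), the largest difference of the 8, at an adjusted p of 0.491 by limma-trend. CDKN1B had 0.21 (0.039 to 0.38), and the intervals of CCND2 and CCND3 ran from -0.32 to 0.095 and from -0.31 to 0.11.

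Adding metformin to FK866 changed 7 of the 8 members, where 20.5% of all genes tested were higher and 21.7% lower. CCND2 rose 2.21-fold, and CCND1, CCND3, CCNE1, CCNE2, E2F1 and E2F2 fell, by log2 fold changes from -0.62 for CCNE1 to -1.49 for CCNE2. CDKN1B had -0.14 (95% interval -0.31 to 0.028, limma-trend adjusted p = 0.167). Between the single drugs all 8 members differed, CCND2 being higher and 7 lower in Met than in FK, with 17.2% and 19.5% of all genes called in those directions. CDKN1B was 21.5% lower in Met than in FK (log2 fold change -0.35, SE 0.079, limma-trend adjusted p = 0.00298). With a fold of 1.5 added, 5 of these 8 remained, where 8.08% of all genes were higher and 7.03% lower, and CCND1, CCNE1 and CDKN1B did not.

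The interaction asks whether the effect of both drugs departed from the sum of the single effects on the log2 scale. No member passed by limma-trend, where 0.0065% of all genes lay above the sum and 0.052% below it at an adjusted p under 0.05. At an unadjusted p under 0.05, 2 members and 4695 genes passed, and edgeR called 0 members. CCNE2 departed most, at -1.06 (95% interval -1.73 to -0.40, limma-trend adjusted p = 0.11). With the GC and length trend removed it was -0.65 (limma-trend adjusted p = 0.0695). CCND2 had -0.38 (limma-trend adjusted p = 0.115). With the replicate block both passed, CCNE2 at an adjusted p of 0.00652 and CCND2 at 0.0298, where the block called 32.0% of all genes tested in either direction. DESeq2 called CCNE2 (0.0273) and 4.52% of all genes.

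A further 6 lists, also chosen with earlier results known, covered 48 other genes of the G1/S step, 47 of them tested. In Met, 25 of the 47 were lower and 5 higher than in DMSO, where 25.9% of all genes tested were lower and 24.9% higher. In Met+FK the counts were 25 and 8, with 26.1% of all genes in each direction. In FK they were 8 lower and 5 higher, with 9.84% and 11.3% of all genes. The FK counts were 0 lower and 1 higher with only the libraries compared and without DMSO library 1, DMSO 3 or FK 2. Of all genes tested, those settings called 152, 133, 378 and 236 in FK against DMSO, where 3251 were called before. With the replicate block, which called 44.6% of all genes, the counts were 14 lower and 16 higher. The 12 E2F target genes of S phase were all lower in Met, each past a fold of 1.5, with a median log2 fold change of -1.26 where the median of all genes was 0.012. Values in parentheses here are log2 fold changes unless named as a p. They ran from RRM2, a subunit of ribonucleotide reductase (-1.71, limma-trend adjusted p = 4.22e-11), and TK1, thymidine kinase (-1.58), to CDK1 (-0.63). RRM2 went from a mean of 30846 normalized counts in DMSO to 9401 in Met, 29749 in FK and 7621 in Met+FK. In FK 3 of the 12 were lower, MCM2 (-0.37), MCM5 (-0.45) and CDT1 (-0.41). None of the 12 passed in FK with only the libraries compared or without DMSO library 1, DMSO 3 or FK 2, and with the replicate block 5 were lower and 1 higher. The median in FK was -0.11.

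Among 8 G1 kinases and activators, 4 were lower and 3 higher in Met, where 25.9% of all genes tested were lower and 24.9% higher. The phosphatase CDC25A (-1.38, limma-trend adjusted p = 1.15e-07) and CDK2 (-1.02, adjusted p = 2.53e-08) fell most. CDK6 (0.74, limma-trend adjusted p = 0.00185) and CDK7 (0.55, adjusted p = 0.00154) rose. Of the other CDK inhibitors, CDKN2C (-1.64) and CDKN2D (-0.92), which bind CDK4 and CDK6, fell in Met with limma-trend adjusted p of 1.25e-07 and 1.96e-05. CDKN1A (p21), also tested, had 0.16 in Met (limma-trend adjusted p = 0.0907) and rose in FK by 0.33 and in Met+FK by 0.30 (limma-trend adjusted p = 0.0208 and 0.00493). The FK call on CDKN1A was lost with only the libraries compared (limma-trend adjusted p = 0.0611) and without DMSO library 1 (0.0995), DMSO 3 (0.0547) or FK 2 (0.0501). CDKN2A was not tested, being at 0.

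Of 8 other E2F and DP factors, E2F8, a repressor (-1.11), the E2F partner TFDP1 (-0.85) and E2F4 were lower and E2F5 (0.44) was higher in Met, with limma-trend adjusted p from 1.27e-07 for TFDP1 to 0.00584 for E2F4. Of 8 pocket protein and DREAM complex genes, RBL2 rose (0.35, limma-trend adjusted p = 0.0201) and RBBP4 (-0.44) and RBL1 (-0.29, adjusted p = 0.0427) fell. The call on RBL2 was lost without DMSO library 1 (0.23, limma-trend adjusted p = 0.119), without Met 2 (0.29, adjusted p = 0.0846) and with the GC and length trend removed (0.16, adjusted p = 0.0905). That on RBL1 was lost with TMM scaling, by edgeR, with all genes above 0 in the fit and without DMSO 1, DMSO 2, Met 1 or Met 3, at adjusted p of 0.0511 to 0.133. Of 8 genes for the turnover of cyclins and p27, 2 were lower and 0 higher in Met. SKP2, the F-box protein that marks p27 for destruction, fell (-1.16, limma-trend adjusted p = 1.98e-07), as did its cofactor CKS1B (-0.46, adjusted p = 0.000179). Over all genes tested, 25.9% were lower and 24.9% higher in Met. The numbers of lower genes in the pocket protein and turnover lists were near that share. In Met+FK against Met, 0 of the 47 genes passed by limma-trend, with 12 at an unadjusted p under 0.05. edgeR called 0 of them, DESeq2 called 3 and the replicate block gave 4, all lower. Over all genes tested, DESeq2 called 0.481% there and the replicate block 0.78%. Scaling to the same total left the E2F targets at 12 lower but gave 2 higher and 1 lower among the pocket protein genes and 2 higher and 2 lower among the E2F and DP factors, and added 1 higher gene to the other CDK inhibitors and to the turnover genes.

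**Figure D5:**
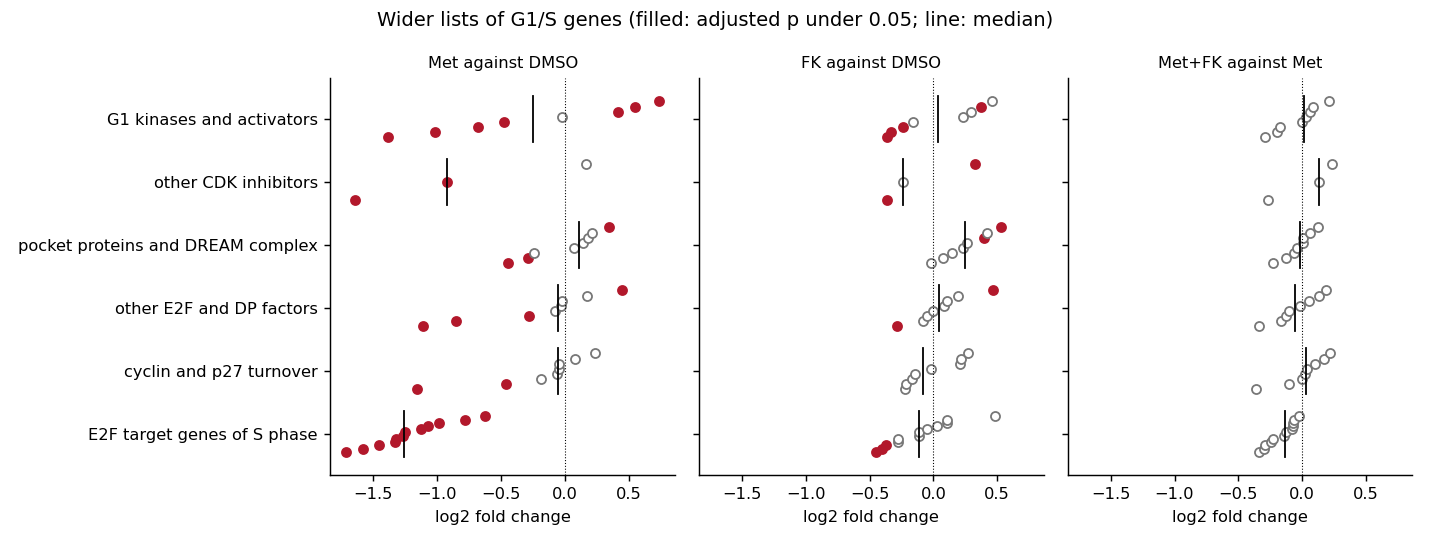
Log2 fold changes (horizontal axis) of the 47 tested genes in 6 lists (vertical axis) for 3 comparisons, filled where the limma-trend adjusted p was under 0.05, with a line at the median of each list. All 12 E2F target genes lie left of 0 and are filled in Met against DMSO, and none is filled in Met+FK against Met.

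The genes whose pattern over the 12 libraries was most like each member were ranked by the root mean square difference between centred log2 values. KIFC1 and EBP were closest to CCND3, at 0.0433 and 0.0488. LUC7L (0.0602) and TOMM5 (0.0626) were closest to CCNE1, and EIF4EBP2 (0.0811) and PASK (0.0937) to CCND1. E2F1 was most like SPC24 (0.0613) and MYBL2 (0.0657), the latter also among the 12 E2F target genes, and E2F2 most like ORC1 (0.124) and C21orf58 (0.126). Nearest to CCND2 were OSBPL6 (0.112) and PLCG2 (0.129), and nearest to CDKN1B were PTPRK (0.0717) and E2F7 (0.0743). By this measure CCNE2 had the least close matches, BRIP1 (0.158) and HELLS (0.188), both genes of DNA maintenance. The measure is not scaled to a gene's own spread, so genes that vary little get small differences. The root mean square of the centred values themselves was 0.183 for CDKN1B and 0.617 for CCNE2. Within the members, CCND3 and E2F1 were close, at 0.0824, and CCND2 was far from CCND1, at 1.09. All points share the same libraries and the treatment means, so the ranking is a description.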

How the data were processed

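KP4 cells were profiled by rRNA-depleted paired-end RNA-seq in 4 treatments with 3 libraries each. Per the methods, the authors used cutadapt for trimming, STAR for alignment to hg38, featureCounts for gene counts of read pairs, and DESeq2 for normalization. No strand setting was listed, and the annotation release is not given in the sources used here. The deposited signal values are normalized counts, and 100% came out as whole read pairs within 0.01 after division by the value of 1 read pair in each library. Depth was 30667735 to 41052203 read pairs with size factors of 0.867 to 1.21. The number of per-sample columns left unused was 0.

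Testing was limited to genes averaging 10 or more normalized counts, and was done on log2(value + 1) with limma-trend (limma 3.58.1, R 4.3.3). A single fit held the 12 libraries, and p-values were adjusted over 15376 genes by the Benjamini-Hochberg method. Fold changes are on that scale, which understates changes of low genes. The normalized counts being no raw counts, edgeR 4.0.16 and DESeq2 1.42.0 were run on the recovered read pairs as alternatives only. The script was tested on simulated data. Table starts count from 0 and were raised by 1, after which 83.6% of the 36366 genes found in GENCODE 44 had the same position. Lengths and GC content are of one canonical transcript of GENCODE 44. Replicates differed by more than sampling noise (5.69 to 51.4 for the chi-square of a pair over its degrees of freedom).

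The labels number the libraries 1 to 3 in each treatment without saying what is shared. Deviations from the treatment means correlated between same-numbered libraries at 0.219 to 0.420 for DMSO and FK and at 0.171 to 0.226 for Met and Met+FK, so those were read as paired, from the values and not from the labels. In every other combination of the values as deposited at least 1 pair lay under 0.1. Single pairs there still reached 0.403 for Met and FK and 0.328 for DMSO and Met. Libraries with different numbers were not compared, so the reading as paired is uncertain. With the GC and length trend removed, DMSO and FK correlated at 0.127 to 0.170, near Met and FK at 0.118 to 0.144, which were not read as paired. Met and Met+FK then correlated at 0.0752 to 0.159, with 2 of 3 pairs under 0.1.

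Members and lists were chosen with earlier results of these data known. The text names all 10 members, in each list at most 2 genes with the largest and 2 with the smallest log2 fold change among those that passed in Met against DMSO, and the 2 genes most like each tested member. Values of 1 gene under this rule and of 1 marker are not reported here. Genes named beyond this (MCM2, MCM5, CDT1, E2F4, CDKN1A, CDKN2A, genes that overlap or neighbour a member, and the cell type markers) were added for a count of 5 or fewer, an overlap or a check. Other scalings, filters, pseudocounts, tests, trends on GC content and length, the replicate block and leaving out each library were tried.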

Additional observations from a re-analysis of the deposited data

How the results depend on the processing

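Counts of members called in Met+FK against DMSO (8) and in Met+FK against FK (7) were within 1.5 times of these under all alternatives run, and the 6 of Met against DMSO ranged from 6 to 7. No called value changed sign; sign changes of values that passed in neither setting were not counted. Scaling to the same total moved the median of all genes in Met against DMSO from 0.012 to 0.13 on the log2 scale.

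In FK against DMSO, 2 members passed, where 3251 genes were called in all. With the fold of 1.5, 0 members passed. Of members and of all genes, 0 and 152 passed with only the libraries compared. With the GC and length trend removed these numbers were 1 and 1746, and 4 and 3191 with the replicate block added. DESeq2 called 4 and 4091, and the replicate block 6 and 6854. Leaving out 1 library gave 0 to 6 members. The numbers were 0 and 133 without DMSO library 1, 1 and 378 without DMSO 3, and 1 and 236 without FK 2. Without DMSO 2 they were 4 and 4157, and without FK 1 they were 6 and 4942. In Met+FK against Met, 0 members passed. CCND1 alone did so with the same total, only the libraries compared, the replicate block or DESeq2. With the GC and length trend removed 2 passed (CCNE2 added), and 5 with that and the replicate block. Of all genes, 15 passed there, 21 with the same total and 39 with only the libraries compared. The replicate block called 120 and DESeq2 74. With the trend removed 162 passed, and 531 with the block added. In Met against FK, 5 of 8 passed with the fold of 1.5. For the interaction, 0 members and 9 genes passed. The replicate block gave 2 members and 4914 genes. With the GC trend removed and the replicate block these were 2 (CCND1 and CCNE2) and 1203. DESeq2 gave 1 and 695. Leaving out 1 library gave 0 to 2 members, with 2 only without FK library 1, where 1844 genes were called. In Met against DMSO, whose numbers were not read as pairs, the replicate block added CCNE2 (adjusted p = 0.0282). The cause of these differences was not tested. Depth limits the comparison of CDKN1C between treatments, and its counting intervals cover counting error only. For CDKN2B, depth sets the level that a count of 0 allows, and the cause of that count was not tested.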

Other observations

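For CCNE2, the cyclin gene with the lowest GC content, library 2 was the highest in DMSO (534 normalized counts), Met (349.6) and FK (699.8), and in Met+FK library 3 was (201). The slope of expression on GC content, in log2 units for 10 percentage points, was lowest in library 2 for DMSO (0.0429, against 0.196 and 0.18) and for FK (-0.245, against 0.00266 and -0.0247). In Met the slopes were -0.0849, -0.139 and 0.0801 in libraries 1 to 3, and in Met+FK they were -0.0232, -0.0481 and 0.0631. The part of GC content in the CCNE2 values was not tested beyond the fit with the trend removed.

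BRIP1 and HELLS, the genes most like CCNE2, had the same order of treatment means. They were picked for likeness over the same libraries, so the shared order is a description. BRIP1, a helicase of DNA repair, averaged 920.4 normalized counts in DMSO, 601 in Met, 1199 in FK and 465 in Met+FK. HELLS, a chromatin remodeller, averaged 3829, 2517, 4886 and 1841 in that order. E2F7, an atypical repressor of the E2F family and among the genes most like CDKN1B, averaged 2674 in DMSO, 3024 in Met, 3701 in FK and 3311 in Met+FK, and rose in FK (0.47, limma-trend adjusted p = 0.00376).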
